A study of Mus musculus with 12 samples.

Results

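The clustered protocadherins are cell-surface adhesion proteins encoded by the neighbouring gene clusters Pcdha, Pcdhb and Pcdhg on mouse chromosome 18. Members were taken by name, as all rows of the deposited count table whose name starts with Pcdha, Pcdhb or Pcdhg, with no use of their values. This gave 58 of 23079 rows: 14 Pcdha rows, 21 Pcdhb rows, 22 Pcdhg rows and Pcdha4-g, a row whose gene model runs from Pcdha4 through the end of Pcdhg. On build mm10 the Pcdha cluster lies at positions 36930285 to 37187663, the Pcdhb cluster at 37264998 to 37521419 and the Pcdhg cluster at 37661775 to 37841873, all on the plus strand.

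RNA-seq libraries were made from midbrain dopaminergic neurons of C57BL/6 mice, from the substantia nigra pars compacta (SNpc) and from the ventral tegmental area (VTA), with 6 samples of each region. The labels call them TRAP samples, read here as translating ribosome affinity purification, which enriches the ribosome-bound RNA of a chosen cell type. No treatment, age, sex or driver line is stated in the sources used here, and neither is the animal behind a library, so a p-value here weighs only variation among libraries, part of which may be technical. SNpc columns 4 and 5 were identical, as were VTA columns 2 and 3, and each pair was counted as 1 library, which left 5 libraries per region (SNpc 1, 2, 3, 4 and 6, and VTA 1, 2, 4, 5 and 6).

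As background, each Pcdha and Pcdhg isoform joins its own large variable exon, with its own promoter, to constant exons shared by its cluster, whereas each Pcdhb protein is encoded by a single exon. The extracellular domains bind the same isoform on a facing membrane, and the mix of isoforms lets neurites of a cell recognise and avoid each other. Neurons are known to choose among the variable promoters, a choice that involves CTCF, cohesin and promoter methylation, while the C-type isoforms (Pcdhac1, Pcdhac2, Pcdhgc3, Pcdhgc4 and Pcdhgc5) follow other rules.

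Total counts ran from 62356964 to 81393907 per library. Levels are CPM, a gene's share of its library's counts brought to a common total, with the totals scaled by the trimmed mean of M values, log2 fold changes are SNpc minus VTA, and a call is an adjusted p under 0.05 from edgeR's quasi-likelihood test with Benjamini-Hochberg adjustment over all 15685 genes tested. Of 8 dopaminergic markers, 7 were higher in SNpc and none higher in VTA. Their summed level was 9603 to 13957 CPM in SNpc and 4899 to 8035 CPM in VTA. No unpurified sample is among the samples, so enrichment of dopaminergic RNA could not be measured. Markers of other cells were present at lower levels. Astrocyte markers summed to 266 to 466 CPM in SNpc and 457 to 609 CPM in VTA (3 of 10 higher in VTA), oligodendrocyte precursor markers to 19.6 to 66.1 CPM in SNpc and 48.5 to 72.7 CPM in VTA (3 of 6 higher in VTA). Glutamatergic markers summed to 18.6 to 88.6 CPM in SNpc and 93.7 to 132 CPM in VTA (2 of 4 higher in VTA). No marker of these lists was at 0 in every library. Lower levels in one region may reflect fewer cells of a type or less RNA per cell, which cannot be told apart in bulk libraries.

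The Pcdha and Pcdhg rows were not separate measurements. In genome order, each Pcdha row held no more counts than the row before it in 130 of 130 comparisons between neighbouring rows within a library, and each Pcdhg row in 210 of 210. The counts thus ran downwards like a staircase, as counts taken over each gene's whole span to the shared end of its cluster would. The same order was frequent elsewhere in the table: among 431 pairs in which a gene lies within the span of another and averages at least 20 counts, the outer gene held at least as many counts in every library in 391 pairs (90.7%). A longer outer gene may hold more counts under other ways of counting too, which was not examined. That share therefore cannot show how reads were counted. The counts of Pcdha4-g were close to the sum of the rows inside its span. The Pcdha4 row, the Pcdhb rows, the Pcdhga1 row and the rows of Taf7 and Slc25a2, which lie between Pcdhb and Pcdhg, added up to 85.6% to 94.9% of the Pcdha4-g count.

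**Figure D1:**
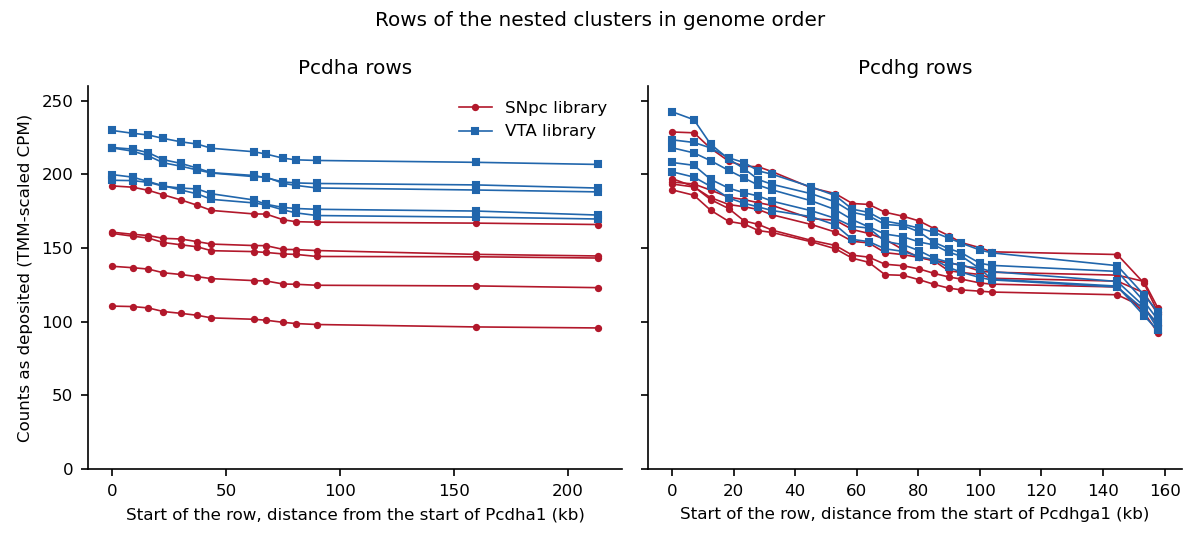
Level of each Pcdha row (left) and Pcdhg row (right) in TMM-scaled CPM against the distance in kb of its start from the first row of its cluster, with 1 line per library (red circles SNpc, blue squares VTA). No line rises along either cluster; the Pcdha lines of the regions stay apart from first row to last, and the Pcdhg lines of the regions overlap.

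Each row was therefore also reduced to its own window, the row minus the next row downstream, which covers the variable exon and the sequence up to the next one. This step was chosen after the counts were seen. The last row of each cluster cannot be reduced: its terminal window holds the variable exon of Pcdhac2 or Pcdhgc5 together with the shared constant exons and the introns between them. The Pcdhac2 window spans positions 37143678 to 37187663 and the Pcdhgc5 window spans 37819546 to 37841873. Own windows also hold any antisense or intronic transcript annotated there, because the amplification kit does not mark strand. Variable exons resemble each other: 12 of 14 Pcdha exons, 11 of 21 Pcdhb exons and 8 of 22 Pcdhg exons contain a stretch of 100 bases that recurs in another member, up to 13.0% of the exon in Pcdha, 2.31% in Pcdhb and 10.7% in Pcdhg, so some reads may have been assigned to either copy.

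The level of the Pcdha cluster was higher in VTA. The first row, Pcdha1, which holds the counts of the whole cluster, measured 138, 160, 161, 111 and 192 CPM in the SNpc libraries, against 196, 230, 218, 218 and 200 CPM in the VTA libraries. The highest SNpc library lay below the lowest VTA library. The difference in log2 was -0.48 ± 0.12 (SE; adjusted p = 0.00503, edgeR). All 14 Pcdha rows were called higher in VTA, with log2 fold changes between -0.48 and -0.46, and none higher in SNpc. Among all genes tested, 20.4% were called higher in VTA and 17.8% higher in SNpc. Because the rows nest, the 14 calls amount to 1 measurement and cannot be read against those shares as 14 genes.

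Most of that measurement came from the terminal window. Pcdhac2, a C-type isoform needed in mice for the even spread of serotonergic axons, names the row, but the constant exons common to all Pcdha proteins are counted with it. The window is 43986 bases long, of which exons take 5888, and the transcripts Gm10544 and Gm38097 are annotated on it. How many of its reads came from Pcdha exons cannot be told from these counts. The terminal window measured 124, 144, 145, 96.3 and 167 CPM in SNpc, against 174, 208, 189, 192 and 171 CPM in VTA. It made up 86.4% to 90.0% of the cluster's counts in SNpc libraries and 84.9% to 90.0% in VTA libraries. SNpc again lay below VTA without overlap, with a log2 fold change of -0.46 ± 0.12 (adjusted p = 0.00729). The 13 upstream windows summed to 17.8 ± 4.88 CPM in SNpc and 27.0 ± 3.37 CPM in VTA (± SD, 5 libraries each), where SNpc library 6, at 26.4 CPM, lay within the VTA range of 23.2 to 30.3 CPM.

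The Pcdha difference depended on 1 correction. With the trend of abundance on transcript length and GC content removed in each library, the count of Pcdha rows higher in VTA was 0 with the library scale kept and 1 with it refitted. The log2 fold change of the Pcdha1 row was then -0.28 (adjusted p = 0.07) and -0.29 (adjusted p = 0.0563). That of the Pcdhac2 row was -0.17 (adjusted p = 0.295) and -0.18 (adjusted p = 0.251). With a covariate for astrocyte, oligodendrocyte, precursor and microglia markers, the count stayed at 14. The part of the dopaminergic and glutamatergic marker differences given above in the Pcdha difference was not tested.

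All 13 upstream Pcdha windows had negative log2 fold changes, from -2.23 to -0.10, and 1 of them was called. Of all 15685 genes tested on own-window counts, 8240 had negative log2 fold changes and 20.4% were called higher in VTA. The upstream Pcdha windows were low, between 0.09 and 4.84 CPM in single libraries. Pcdha8, an alternate isoform whose window lies at 36992467 to 36997879, measured 0.24, 0.59, 0.09, 0.66 and 0.11 CPM in SNpc, against 2.96, 1.64, 0.35, 1.61 and 1.45 CPM in VTA. These are 15, 36, 6, 43 and 7 counts in SNpc and 255, 108, 22, 112 and 98 counts in VTA, and VTA library 4 fell within the SNpc range. Pcdha8 had a log2 fold change of -2.23 ± 0.78 (adjusted p = 0.0311). The call was lost when SNpc library 1, 3 or 6 or VTA library 1, 2 or 5 was left out, with adjusted p between 0.0555 and 0.095. It was also lost with a replicate block (adjusted p = 0.2), with the glial marker covariate (0.184) and in the 3 length and GC fits (0.0548 to 0.276). Pcdha8 was thus called in 9 of 20 own-window settings. Pcdhac1, the other C-type Pcdha isoform, measured 0.957 ± 0.192 CPM in SNpc and 1.77 ± 0.652 CPM in VTA (± SD, 5 libraries each). Its groups did not overlap, from 0.689 to 1.18 CPM in SNpc and 1.27 to 2.74 CPM in VTA, yet its log2 fold change of -0.89 ± 0.53 was not called (adjusted p = 0.201). The Pcdhac1 window is 53542 bases long, of which the variable exon takes 2559.

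No single alternate Pcdha isoform led in all libraries. Per kb of variable exon, Pcdha3 was highest among the upstream windows, with means of 1.05 ± 0.198 CPM per kb in SNpc and 1.41 ± 0.488 CPM per kb in VTA (SD). Pcdha9 and Pcdha6 followed with 0.878 and 0.872 CPM per kb in SNpc and 1.23 and 1.20 CPM per kb in VTA, within the spread of Pcdha3. Here and for Pcdhg, counts of the whole window were divided by the exon length, so any reads outside the exon add to these values. The highest window was Pcdha3 in 5 libraries, Pcdha6 in 2, and Pcdha5, Pcdha7 and Pcdha12 in 1 each. All 13 windows held counts in all 10 libraries.

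Pcdhb proteins have no constant region, and their rows are separate single-exon genes, so their counts can be read gene by gene. Of the 21 rows, 20 were tested. Pcdhb1 did not pass the filter on low counts, with 0 to 7 counts in SNpc libraries and 3 to 36 in VTA libraries. The lowest of the tested rows, Pcdhb6, held 10 to 119 counts in SNpc libraries and 32 to 89 in VTA libraries. Of the tested rows, 4 were higher in VTA and none higher in SNpc, a share near the 20.4% of all genes. The other 16 had log2 fold changes from -0.81 to 0.74.

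The 4 called rows were Pcdhb16, Pcdhb17, Pcdhb19 and Pcdhb20. Pcdhb17, at 37485021 to 37488290, measured 6.08, 4.40, 5.71, 3.44 and 7.39 CPM in SNpc, against 7.82, 17.0, 11.3, 9.15 and 11.6 CPM in VTA. It was the only Pcdhb row whose regions did not overlap, but no share of all genes without overlap is given here for comparison. Its log2 fold change was -1.07 ± 0.26 (adjusted p = 0.00393), and it was called in every alternative that was run. Pcdhb19, at 37496998 to 37501711, measured 1.77, 2.64, 3.52, 3.38 and 5.89 CPM in SNpc, against 9.69, 9.48, 7.29, 7.46 and 5.74 CPM in VTA. SNpc library 6 and VTA library 6 were near each other, and all other SNpc libraries were lower than all VTA libraries. Its log2 fold change was -1.21 ± 0.31 (adjusted p = 0.0057).

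Pcdhb20, at 37504264 to 37507660, measured 3.32, 2.67, 5.20, 7.76 and 4.37 CPM in SNpc, against 7.65, 11.3, 8.95, 7.89 and 10.2 CPM in VTA. SNpc library 4 alone reached the VTA range. Its log2 fold change was -0.98 ± 0.28 (adjusted p = 0.0115). Pcdhb16, at 37477768 to 37483038, measured 3.28, 4.73, 11.3, 7.96 and 6.52 CPM in SNpc, against 16.2, 19.8, 10.3, 9.32 and 8.13 CPM in VTA. SNpc library 3 lay above 3 VTA libraries, and the log2 fold change of -0.92 ± 0.32 had an adjusted p of 0.0321. Leaving out SNpc library 1, 2 or 6 or VTA library 1 or 2 ended this call, with adjusted p between 0.0612 and 0.115, as did removing the length and GC trend (0.0563 with the scale kept and 0.0547 with it refitted). With the glial marker covariate only Pcdhb17 of the 4 was called, and the adjusted p was 0.0507 for Pcdhb19, 0.0891 for Pcdhb20 and 0.244 for Pcdhb16.

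The called rows all lie in the last part of the cluster, with Pcdhb18, which was not called, between Pcdhb17 and Pcdhb19. In the stretch from Pcdhb15 to Pcdhb22, 47.9 kb long at 37473546 to 37521419, all 7 rows had log2 fold changes below 0, from -1.21 to -0.50, with a median of -0.92. No row there is named Pcdhb21. The 3 rows there that were not called were Pcdhb15, Pcdhb18 and Pcdhb22. Their log2 fold changes were -0.81 (adjusted p = 0.0921), -0.81 (adjusted p = 0.0881) and -0.50 (adjusted p = 0.1). In the stretch from Pcdhb1 to Pcdhb14, 186.1 kb long, 0 of 13 tested rows were called, 6 had negative and 7 positive log2 fold changes, and the median was 0.01. No row of that stretch had an unadjusted edgeR p under 0.05, and all 7 of the other stretch did. The median over all genes tested was -0.04. The boundary between the stretches was chosen after the values were seen, so the contrast between them is a description without a test.

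Sums and values per kb are on the scale of the own-window fit, which differs slightly from that of the deposited rows. Summed over the stretch, Pcdhb15 to Pcdhb22 measured 27.1, 29.0, 44.0, 37.5 and 43.7 CPM in SNpc, against 66.3, 91.5, 63.0, 57.6 and 54.3 CPM in VTA. All SNpc sums lay below all VTA sums. The sum of Pcdhb1 to Pcdhb14 was 38.6 ± 2.01 CPM in SNpc and 38.1 ± 2.80 CPM in VTA (± SD, 5 libraries each), with overlapping ranges. The stretch from Pcdhb15 on held 41.3% to 54.4% of all Pcdhb counts in SNpc libraries and 60.3% to 69.3% in VTA libraries.

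Per kb of gene, Pcdhb22 had the highest mean among Pcdhb members in both regions, 2.72 ± 0.833 CPM per kb in SNpc and 3.84 ± 0.521 CPM per kb in VTA (SD). Pcdhb14 and Pcdhb17 followed in SNpc with 2.12 and 1.66 CPM per kb. In VTA, Pcdhb17 and Pcdhb20 followed with 3.50 and 2.73 CPM per kb, the first of them within the spread of Pcdhb22. Pcdhb22 was highest in 5 libraries, Pcdhb17 in 3, all from VTA, and Pcdhb14 in 2, both from SNpc. In CPM, Pcdhb14 averaged 7.25 ± 2.49 in SNpc and 6.69 ± 1.28 in VTA (± SD, 5 libraries each), and its log2 fold change of 0.12 ± 0.26 was not called (adjusted p = 0.759).

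**Figure D2:**
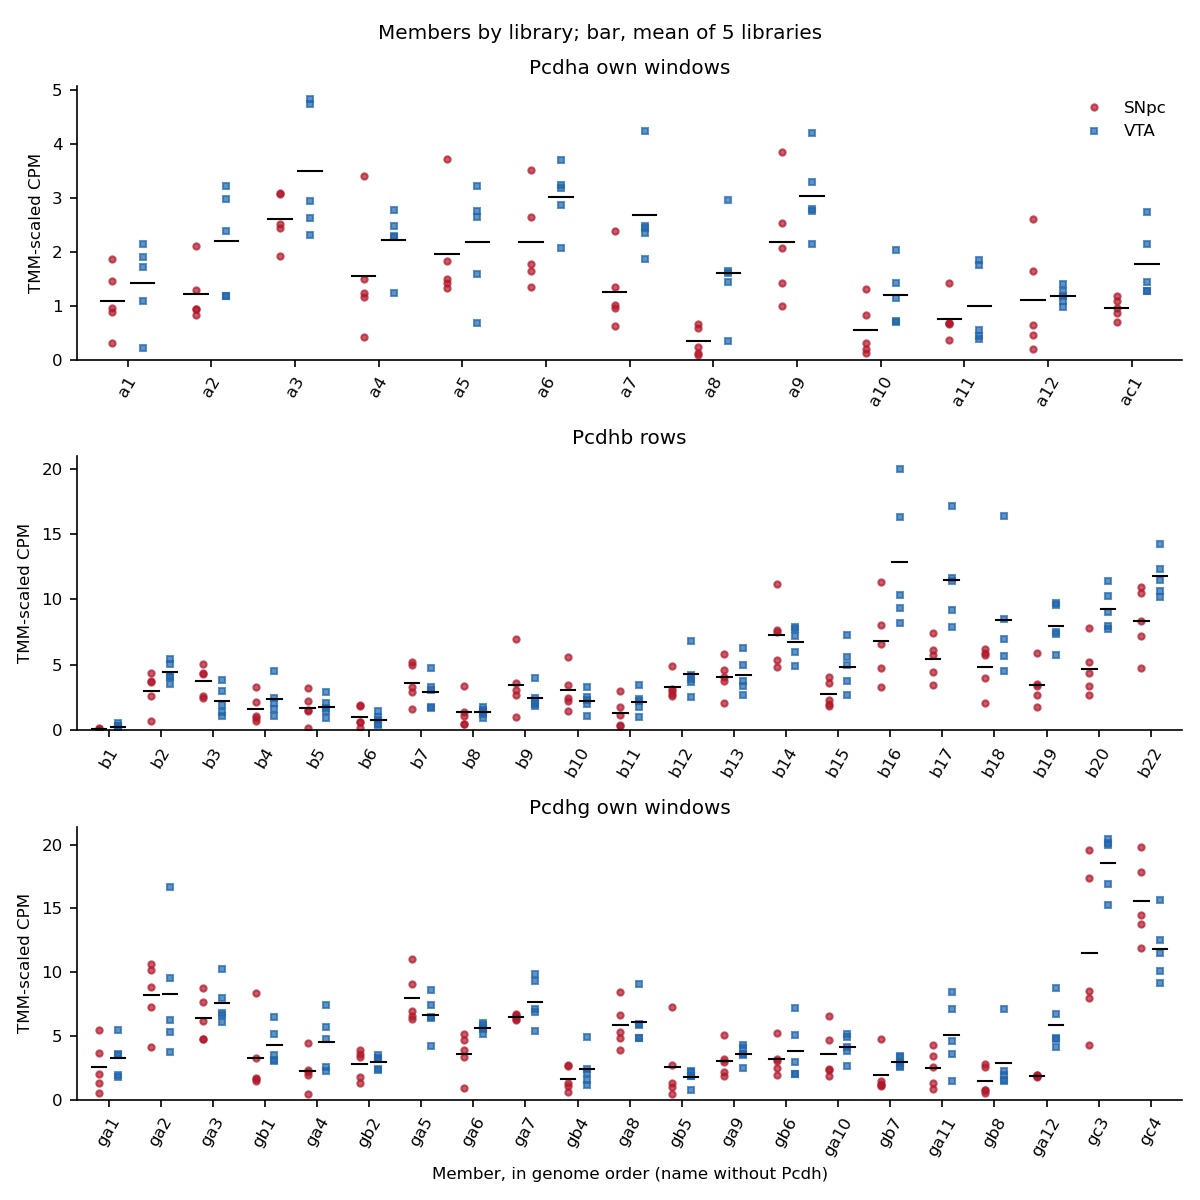
Level in TMM-scaled CPM of each Pcdha own window (top), Pcdhb row (middle) and Pcdhg own window (bottom) in genome order, without the terminal windows. Points are libraries (red circles SNpc, blue squares VTA; SNpc left), and black bars are means of 5 libraries; from Pcdhb15 to Pcdhb22 each VTA mean lies above its SNpc mean, and the Pcdhga12 SNpc points lie close together below the VTA points.

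The Pcdhg cluster as a whole did not separate the regions. The first row, Pcdhga1, measured 190, 229, 197, 195 and 193 CPM in SNpc, against 243, 218, 223, 202 and 208 CPM in VTA, with overlap. Its log2 fold change was -0.12 ± 0.09 (adjusted p = 0.284). None of the 22 Pcdhg rows was called in either direction by edgeR, 0 had an unadjusted p under 0.05, and DESeq2 called 0 as well. Their log2 fold changes ran from -0.13 to 0.09. These rows nest too, so the 22 results are not separate and cannot be read against the shares of all genes called. The terminal window, which holds Pcdhgc5 and the constant exons common to all Pcdhg proteins, measured 98.4, 107, 93.1, 106 and 110 CPM in SNpc, against 102, 94.7, 108, 99.8 and 95.6 CPM in VTA. Its log2 fold change was 0.04 ± 0.09, and the normal 95% interval ran from -0.13 to 0.22 (adjusted p = 0.739).

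Upstream windows made up a larger part of Pcdhg counts than of Pcdha counts. The Pcdhg terminal window held 46.6% to 56.6% of the cluster's counts in SNpc libraries and 41.8% to 49.2% in VTA libraries, compared with at least 84.9% for Pcdha in any library. The 21 upstream Pcdhg windows summed to 98.9 ± 15.5 CPM in SNpc and 120 ± 14.5 CPM in VTA (± SD, 5 libraries each), with overlap. The A-type and B-type windows alone summed to 71.8 ± 8.03 CPM in SNpc and 89.9 ± 12.3 CPM in VTA.

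With the length and GC trend removed, 2 Pcdhg rows, Pcdhgc4 and Pcdhgc5, were called higher in SNpc. The log2 fold change of the Pcdhgc5 row was then 0.35 (adjusted p = 0.0059) and that of the Pcdhgc4 row 0.31 (adjusted p = 0.0109). The Pcdhgc4 row includes the counts of the Pcdhgc5 row, so these 2 calls rest largely on the same counts.

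The C-type isoforms Pcdhgc3 and Pcdhgc4 led the Pcdhg windows. Pcdhgc3, which binds Axin1 and dampens Wnt signalling, measured 8.57, 19.6, 17.4, 7.96 and 4.30 CPM in its own window in SNpc, against 20.4, 20.1, 19.9, 15.3 and 16.9 CPM in VTA. The SNpc libraries were spread widely, with 2 of them inside the VTA range. The log2 fold change was -0.68 ± 0.32 and was not called (adjusted p = 0.106), but it was called without SNpc library 2 (-0.95, adjusted p = 0.0245) or without SNpc library 3 (-0.87, adjusted p = 0.0496). The antisense transcript BC037039 overlaps this window. Pcdhgc4, needed in mice for the survival of many neurons, measured 11.9, 19.8, 13.7, 14.5 and 17.9 CPM in SNpc, against 12.5, 10.1, 11.6, 9.19 and 15.6 CPM in VTA. The groups overlapped, and the log2 fold change of 0.40 ± 0.20 was not called (adjusted p = 0.122).

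Per kb of variable exon, Pcdhgc4 had 5.36 ± 1.11 CPM per kb in SNpc and 4.06 ± 0.861 CPM per kb in VTA, and Pcdhgc3 had 4.50 ± 2.56 CPM per kb in SNpc and 7.22 ± 0.897 CPM per kb in VTA (SD). Pcdhgc3 was the highest Pcdhg window in 7 libraries, including all 5 of VTA, and Pcdhgc4 in 3, all from SNpc. In SNpc the isoforms lay within each other's spread. Together they held 22.2% to 32.0% of the upstream Pcdhg counts in SNpc and 23.2% to 28.6% in VTA. Pcdhga2 was next in mean level per kb in both regions, with 3.20 ± 1.01 CPM per kb in SNpc and 3.24 ± 2.0 CPM per kb in VTA.

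One Pcdhg window differed between the regions. Pcdhga12, the last A-type member, measured 1.87, 1.84, 1.93, 1.93 and 1.98 CPM in its window in SNpc, against 4.14, 4.81, 8.77, 4.90 and 6.77 CPM in VTA. The SNpc libraries lay close together and well below all VTA libraries. With a log2 fold change of -1.62 ± 0.32, Pcdhga12 was called (adjusted p = 0.000764), and the call was kept in each of the 19 alternatives run on own-window counts. The length and GC alternatives among them used the values of an annotated transcript, not those of the window. This window is 40830 bases long, at 37765580 to 37806409, of which the variable exon takes 2961 bases, and the transcripts Gm26672 and BC037039 are annotated on it. How many of its reads came from the Pcdhga12 exon cannot be told apart from these counts. Pcdhga6 also had no overlap, with 0.98 to 5.14 CPM in SNpc and 5.19 to 6.00 CPM in VTA, but was not called (log2 fold change -0.64 ± 0.36, adjusted p = 0.18). Of the 22 Pcdhg windows, terminal one included, 1 was called higher in VTA and 0 higher in SNpc. On own-window counts, 20.4% of all genes were called higher in VTA and 17.8% higher in SNpc.

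**Figure D3:**
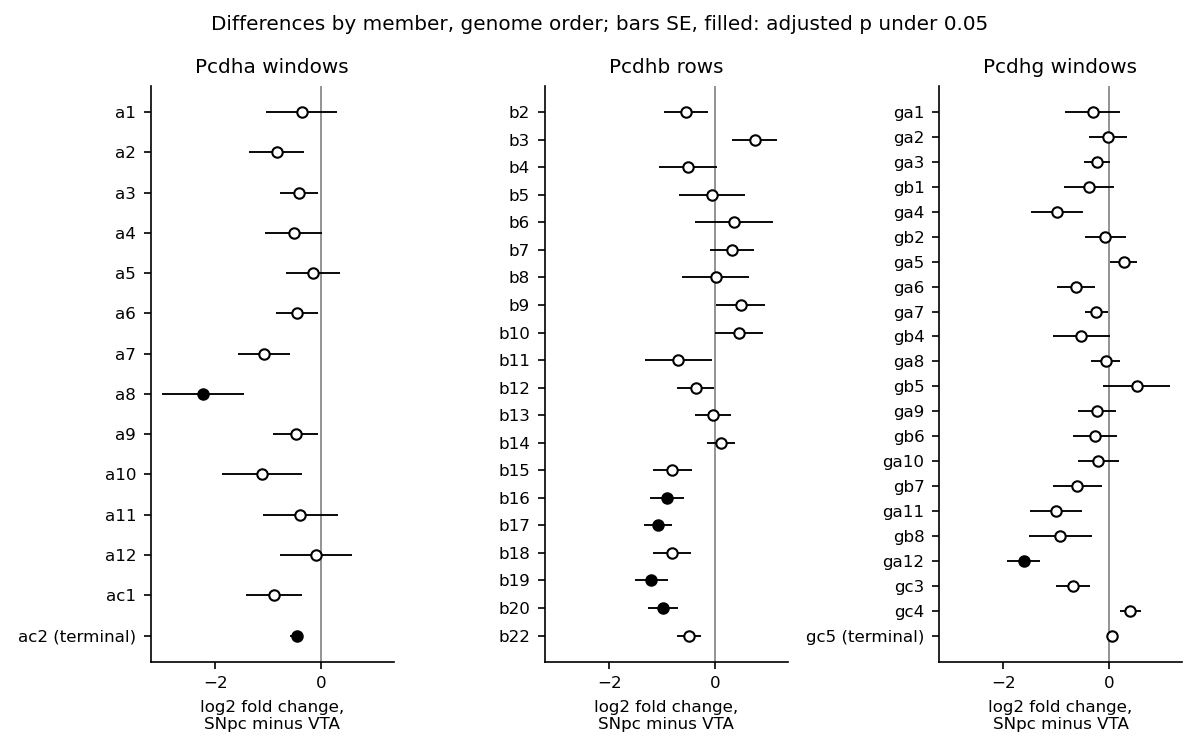
Log2 fold change, SNpc minus VTA, with its SE for each tested member in genome order from top to bottom, from the fit on own-window counts (Pcdha left, Pcdhb centre, Pcdhg right). Filled points have an adjusted p under 0.05: Pcdha8 and the Pcdha terminal window, the Pcdhb rows 16, 17, 19 and 20, and Pcdhga12; all 14 Pcdha points and all 7 points from Pcdhb15 on lie left of 0.

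Single windows varied more between libraries of a region than a typical gene. The median coefficient of variation was 52.5% in SNpc and 36.7% in VTA over the 13 upstream Pcdha windows, 43.6% in SNpc and 36.8% in VTA over the tested Pcdhb rows, and 44.8% in SNpc and 28.3% in VTA over the 21 upstream Pcdhg windows. Over all genes tested it was 20.9% in SNpc and 19.4% in VTA. Their levels were low, and a set at low counts was therefore also compared with the trend at its abundance. The median ratio of a gene's edgeR dispersion to that of the trend at its abundance was 0.77, 0.87 and 0.89 for the Pcdha, Pcdhb and Pcdhg sets, against 0.87 for all genes tested.

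The row Pcdha4-g measured 425, 496, 484, 415 and 517 CPM in SNpc, against 631, 690, 607, 581 and 564 CPM in VTA, with no overlap and a log2 fold change of -0.39 ± 0.09 (adjusted p = 0.00237). After the rows inside it were subtracted, 24.6, 25.5, 33.9, 24.4 and 35.2 CPM remained in SNpc, against 69.8, 100.0, 55.5, 59.1 and 55.8 CPM in VTA. All SNpc libraries were lower than all VTA libraries. The log2 fold change of this remainder was -1.24 ± 0.17 (adjusted p = 3.47e-05), and it was called in each of the 19 alternatives run on own-window counts. It counts reads between the listed genes, and where they lie within the locus cannot be read from these counts. They may include Pcdhb reads, because Pcdhb21 has no row and some Pcdhb exons are longer than the span of their row. For Pcdhb19 the exon has 7138 bases and the row spans 4714. The length and GC alternatives used the values of an annotated transcript, not those of the remainder.

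**Figure D4:**
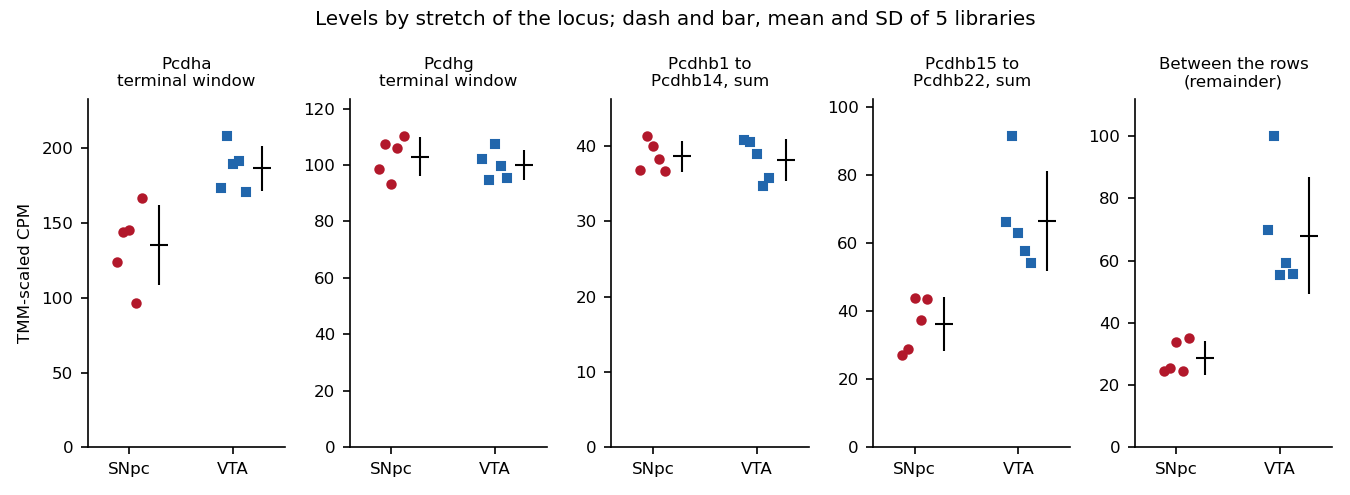
Level in TMM-scaled CPM of the Pcdha and Pcdhg terminal windows, the summed Pcdhb1 to Pcdhb14 and Pcdhb15 to Pcdhb22 rows, and the remainder of the Pcdha4-g row, in each library (SNpc red circles at left, VTA blue squares at right; dash and bar are mean and SD of 5 libraries; each panel has its own axis from 0). SNpc and VTA do not overlap for the Pcdha terminal window, Pcdhb15 to Pcdhb22 and the remainder, and overlap for the Pcdhg terminal window and Pcdhb1 to Pcdhb14.

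Genes known to govern promoter choice in these clusters were set beside them. Of 11 insulator and cohesin genes, 4 were higher in VTA and none higher in SNpc, beside 20.4% and 17.8% of all genes tested, with a median log2 fold change of -0.25 against -0.04 over all genes. Nipbl, which loads cohesin onto DNA, averaged 56.0 ± 9.15 CPM in SNpc and 132 ± 31.7 CPM in VTA (log2 fold change -1.24, adjusted p = 8.65e-06). Pds5b and Wapl, which regulate how long cohesin stays on DNA, had log2 fold changes of -0.93 (adjusted p = 1.45e-05) and -0.52 (adjusted p = 0.0013), and that of Wapl was -0.31 (adjusted p = 0.0296) with the length and GC trend removed. Ctcf itself, the insulator protein, averaged 40.8 ± 1.27 CPM in SNpc and 41.7 ± 4.34 CPM in VTA (± SD, 5 libraries each), with overlap (adjusted p = 0.844).

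Of 11 genes of DNA methylation and silencing, 4 were higher in VTA and 1 higher in SNpc, beside 20.4% and 17.8% of all genes tested, with a median of -0.34. The demethylation enzymes Tet1 and Tet2 averaged 117 ± 29.5 and 205 ± 64.0 CPM in SNpc, against 526 ± 46.6 and 848 ± 120 CPM in VTA. Their log2 fold changes were -2.17 (adjusted p = 1.44e-07) and -2.05 (adjusted p = 4.56e-06). The methyltransferase Dnmt3a averaged 167 ± 50.5 CPM in SNpc and 575 ± 68.0 CPM in VTA (log2 fold change -1.78, adjusted p = 4.79e-06). Whether the levels of these genes bear on those of the protocadherins was not tested.

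Among 12 membrane and kinase partners, 1 was higher in SNpc and 1 higher in VTA, beside 17.8% and 20.4% of all genes tested, and the median was -0.14. Ret, a receptor kinase known to phosphorylate protocadherins, averaged 1111 ± 158 CPM in SNpc and 697 ± 108 CPM in VTA (log2 fold change 0.67, adjusted p = 0.000369). Axin1, the Wnt pathway scaffold bound by Pcdhgc3, averaged 10.1 ± 3.34 CPM in SNpc and 20.3 ± 3.67 CPM in VTA (log2 fold change -1.01, adjusted p = 0.00186). Of 8 genes of the WAVE complex and Rac1, which link these receptors to actin, 2 were higher in SNpc and none in VTA, with a median of 0.11, beside 17.8% of all genes tested that were higher in SNpc. Brk1, a WAVE subunit, had a log2 fold change of 0.55 (adjusted p = 0.00136), which was not called with the length and GC trend removed (0.22, adjusted p = 0.0991). Rac1, the small GTPase, had 0.29 (adjusted p = 0.00909). Cyfip2, the most abundant of the list, averaged 749 ± 34.6 CPM in SNpc and 732 ± 49.5 CPM in VTA and was not called (adjusted p = 0.77), but with the length and GC trend removed it was called higher in SNpc (0.40, adjusted p = 0.000631).

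Of 4 other self-recognition molecules, 3 were higher in VTA and none higher in SNpc, beside 20.4% and 17.8% of all genes tested. Dscam averaged 135 ± 4.82 CPM in SNpc and 228 ± 16.4 CPM in VTA (log2 fold change -0.76, adjusted p = 3.77e-06). Its relative Dscaml1 had a log2 fold change of -1.11 (adjusted p = 0.000522), and Sdk2, a sidekick adhesion molecule, had -1.65 (adjusted p = 0.000682). For these 3 genes no SNpc library reached the VTA range. With the length and GC trend removed and the scale kept, the log2 fold changes were smaller, -0.26 for Dscam (adjusted p = 0.0127), -0.67 for Dscaml1 (adjusted p = 0.0155) and -1.04 for Sdk2 (adjusted p = 0.0197).

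The nearest protein-coding genes on either side of the clusters and between them make up a list of 12. Of these, 3 were higher in SNpc and none higher in VTA, with a median log2 fold change of 0.23, beside 17.8% of all genes tested that were higher in SNpc. Hars, a histidine tRNA synthetase gene upstream of Pcdha, averaged 118 ± 13.3 CPM in SNpc and 77.3 ± 4.35 CPM in VTA (log2 fold change 0.61, adjusted p = 0.000156). Zmat2, the nearest gene upstream, had a log2 fold change of 0.43 (adjusted p = 0.0016), which was 0.22 (adjusted p = 0.0575) with the length and GC trend removed and the scale refitted. Hdac3, a histone deacetylase gene downstream of Pcdhg, had 0.36 (adjusted p = 0.0237). Without SNpc library 1 or VTA library 1 or 5, the adjusted p of Hdac3 was 0.0553, 0.0623 and 0.065, and with the glial marker covariate 0.126.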

How the data were processed

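The deposited table holds raw counts of reads per gene, made by the authors, for 23079 rows named by Entrez identifier in 12 columns; 0 columns lacked a sample. Per the labels' protocols, cDNA was amplified with the NuGEN Ovation V2 kit, which does not mark strand, and sequenced single-end. Reads were aligned with TopHat2 2.0.8 to mm10 per the submitters' processing notes, while how reads were counted, and with what strand setting, is not given in the sources used here.

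Identical columns were used once. Testing used edgeR 4.0.16 (R 4.3.3): filterByExpr (15685 genes kept), TMM scaling, a robust quasi-likelihood F test of region with no covariate, and Benjamini-Hochberg adjustment, called under 0.05. The same fit was repeated with Pcdha and Pcdhg rows replaced by own windows and Pcdha4-g by its remainder. The length and GC alternatives used each gene's longest transcript, also where a window or the remainder took its place. Each SE belongs to a log2 fold change. DESeq2 1.42.0 was an alternative. Both the test and the window step were tested on simulated data, which cannot show how the deposited reads were counted or which reads a window holds. Gene positions came from the RefSeq table and exon lengths from GENCODE, both on mm10, and 23008 identifiers matched RefSeq. Exon stretches shared between members were found in GENCODE transcript sequences. Library measures (the total count and 9 cell marker lists) were set against region with exact two-sided permutation tests over 5 and 5 libraries, a family of 10 with a smallest possible p of 0.00794. Dopaminergic markers gave p = 0.00794 (adjusted p = 0.0529), glutamatergic and oligodendrocyte precursor markers p = 0.0159 (adjusted p = 0.0529), astrocyte markers p = 0.0476 (adjusted p = 0.119), and total counts p = 0.119 (adjusted p = 0.17) by these exact tests; adjusted p was at least 0.127 for the rest. Of the remaining lists, 2 of 8 tested endothelial and pericyte genes, 1 of 9 microglial genes and 1 of 4 serotonergic genes were higher in VTA, 1 microglial gene was higher in SNpc, and no oligodendrocyte or GABAergic gene was called.

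The members and gene lists were chosen with earlier results of these data known. Values are given for called members (up to 8 per cluster), the 3 most abundant of each cluster, the C-type isoforms and, in each list, its most abundant gene and up to 3 called genes of smallest p; Ctcf, Pcdhga6, Pcdhb15 and Pcdhb18 were added after their values were seen.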

Additional observations from a re-analysis of the deposited data

Results flagged for a closer look

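In 9 of 122 groups of 5 libraries that were examined (rows or own windows of the members, by region), 1 library stood far from the others by Dixon's criterion; chance alone flags about 1 in 20 groups. SNpc library 2 had 229 CPM in the Pcdhga1 row, with the nearest SNpc library at 197 CPM, and 4.81 CPM in the Pcdhgb7 window, with the nearest at 1.49 CPM. SNpc library 3 had 8.35 CPM in the Pcdhgb1 window, nearest 3.33 CPM, and 4.90 CPM in the Pcdhb12 row, nearest 3.12 CPM. SNpc library 6 had 3.73 CPM in the Pcdha5 window, nearest 1.82 CPM. VTA library 1 had 4.23 CPM in the Pcdha7 window, nearest 2.48 CPM, and 3.98 CPM in the Pcdhb9 row, nearest 2.40 CPM. VTA library 2 had 7.14 CPM in the Pcdhgb8 window, nearest 2.32 CPM. VTA library 6 had 9.08 CPM in the Pcdhga8 window, nearest 5.99 CPM.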

How the results depend on the processing

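Alternatives changed the normalization, filter, tool, identical columns, length and GC trend, glial covariate or libraries used. Length and GC moved most: Pcdha rows higher in VTA numbered 0 with the trend removed and the scale kept, 1 with it refitted and 0 with the replicate block added, against 14, and members higher in VTA 4, 5 and 4, against 19; 2 Pcdhg rows were then higher in SNpc under all 3. The cause was not tested. Counting 12 columns gave 7 Pcdhb rows higher in VTA, and the glial covariate 1, against 4. Own-window counts, a step added after the data were seen, gave 8 members higher in VTA (2 Pcdha, 1 Pcdhg).

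On own windows, Pcdha calls higher in VTA numbered 1 with the replicate block or the glial covariate and 0 in the 3 length and GC fits, against 2. Pcdhg calls higher in VTA numbered 2 with the block, alone or with the trend removed, and 2 with the covariate, against 1. Pcdhg calls higher in SNpc numbered 2, 2 and, with the block added, 1 in the length and GC fits, against 0. With 1 library left out, the ranges were 1 to 2 for Pcdha windows, 1 to 3 for Pcdhg windows, 3 to 4 for Pcdhb rows and 14 to 14 for Pcdha rows.

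Same-numbered libraries did not deviate together (correlations of 0.0322, -0.0723, -0.0147 and 0.0443), so the numbers were not taken as pairs. The replicate block left 1814 genes higher in SNpc, against 2793, and with the trend removed 1646 in SNpc and 2096 in VTA, against 3203. The block ended the calls of Rac1 (adjusted p = 0.0873) and Hdac3 (0.148), and with the trend removed those of Pcdhb19 (-1.07, 0.0686), Wapl (0.134) and Dscam (0.0951), among others. The Pcdhgc3 own window, not called in the fit reported, was called with the block (-1.15, adjusted p = 0.0157) and with the block and the trend removed (-0.94, 0.033).

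Of the genes followed by name, these changed sign, and none was called where its sign differed; other uncalled members did so too, such as Pcdhb8 (-0.81 to 0.23 over all settings) and the Pcdhgb5 window (-0.30 to 0.91). The log2 fold change of the Pcdhgc3 row, -0.00121, was 0.0294 with DESeq2, 0.0261 with its size factors, 0.00959 without the filter, 0.00453 with 12 columns and 0.0171 with the covariate. With the trend removed it was 0.19 (scale kept), 0.175 (refitted) and 0.201 (block added), and with 1 library left out -0.0456 to 0.065. Pcdhga1 was 0.0466, 0.0308 and 0.0316 in those 3 length and GC fits. On library totals Pcdhgc5 was -0.00773 and Cyfip2 -0.0185. With the covariate Cyfip2 was -0.0182 and Pcdhb14 -0.0302, and with 1 library left out Pcdhb14 ran from -0.0867 (without SNpc library 2) to 0.276. Counting depth limits the own windows, whose levels are mostly below 20 CPM.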
